A study of Homo sapiens with 6 samples.

Results

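The ephrin, semaphorin and plexin guidance genes were taken by symbol: Eph receptors of the A and B groups, ephrins A1 to A5 and B1 to B3, semaphorins of classes 3 to 7, plexins A to D, and the neuropilins NRP1 and NRP2. Of 32029 genes listed in the deposited counts, 47 carried such a symbol: 11 Eph receptors, 8 ephrins, 17 semaphorins, 9 plexins and 2 neuropilins. A member was compared when it had at least 10 reads in at least 3 of the 6 cultures. This left 37 members, and the other 10 were not tested for a change, though their reads count in the class sums below.

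The 6 cultures were of SW480, a line from a human colorectal adenocarcinoma, so all values describe 1 line. The control group of 3 cultures is labelled WT and siNC, a control siRNA. The siZEB1 group of 3 cultures received siRNA against ZEB1, a zinc-finger transcription factor known for repressing epithelial genes, and total RNA was taken 48 h after transfection. The labels do not say whether 1 siRNA or a mixture was used, so effects of the siRNA itself and of ZEB1 loss cannot be told apart. In bulk RNA, fewer cells expressing a gene and less RNA of that gene per cell cannot be told apart either.

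Eph receptors are receptor tyrosine kinases that bind ephrins on a neighbouring cell, and because ephrins are themselves membrane-bound, the contact can signal into both cells. A-type ephrins are held by a lipid anchor and B-type ephrins cross the membrane. Semaphorins bind plexins, whose cytoplasmic part acts on small GTPases and so on the cytoskeleton. Most secreted class 3 semaphorins bind a neuropilin first, which then works with an A-type plexin. In the intestinal crypt, B-type Eph receptors and their ephrins are known for keeping cell populations in their positions, and in carcinoma cells both families are studied for their part in adhesion and migration.

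Counts per culture summed to between 19040636 and 22357633. ZEB1 had 1247, 1276 and 908 reads with siNC and 136, 132 and 162 reads with siZEB1, a log2 change of -2.85 (SE 0.11, adjusted p = 3.49e-12). Of 10 colorectal epithelial markers, 9 were listed. Their summed level was 4811 to 5436 CPM (reads scaled to library sizes corrected by TMM) with siNC and 5330 to 6003 CPM with siZEB1. EPCAM, VIL1 and KRT19 were higher, CDX2 was lower, and KRT8, KRT18 and KRT20 were not called. KRT8 and KRT18 held most of the sum. KRT8 stood at 3454 ± 160 CPM with siNC and 3534 ± 201 CPM with siZEB1 (SD, n = 3). KRT18 stood at 1418 ± 150 and 1460 ± 124 CPM. Immune markers summed to at most 1.22 CPM in any culture and endothelial markers to at most 2.72 CPM. Fibroblast markers summed to 9.73 to 10.9 CPM with siNC and 7.79 to 9.91 CPM with siZEB1, and neuronal markers to 18.8 to 20.1 and 19.1 to 20.2 CPM. Of the neuronal markers, SYT1 was lower and GAP43 higher, and SNAP25 and TUBB3 were not called. PTPRC, CDH5, KDR and DCN were not listed. The part of the epithelial marker shift in the guidance gene results was not tested.

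Among the guidance genes, EFNB3 and SEMA6B, a transmembrane ephrin and a transmembrane semaphorin, fell most after ZEB1 knockdown, and EPHA1 and SEMA3F, a receptor of the Eph family and a secreted semaphorin, rose most. Of 9 plexins and neuropilins compared, 4 were lower and none was higher, and of 7 Eph receptors, 3 were lower and 2 higher. Of all genes tested, 21.0% were lower and 18.8% higher, and whether the classes differ was not tested. A member was called at an adjusted p under 0.05 in edgeR's quasi-likelihood test, fitted to all 15187 genes with enough reads and adjusted over all of them. Of the 37 members compared, 18 were called (48.6%), against 39.8% of all genes tested. Of these, 5 were higher with siZEB1 (13.5% against 18.8% of all genes) and 13 were lower (35.1% against 21.0%). With a fold above 1.5 required as well, 2 members were higher (5.41%, against 6.29% of all genes) and 7 were lower (18.9%, against 8.53%). Among the 7, EPHA4 was at the edge of 1.5-fold and SEMA3G close to the threshold (adjusted p = 0.0489). The median log2 change was -0.23 over the 37 members and -0.01 over all genes tested. Values of the 3 siNC cultures and the 3 siZEB1 cultures did not overlap for 22 members (59.5%, against 49.2% of all genes). Of the 37 members, 7 were higher without overlap (18.9%, against 24.1% of all genes) and 15 lower (40.5%, against 25.1%). The test reads the spread between the cultures of a group, which the study describes as independent of each other and the labels give by number only. Changes are log2 of siZEB1 over siNC with their standard error (SE). Levels are in CPM after TMM scaling, as the mean ± SD of each group of 3 cultures.

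**Figure D1:**
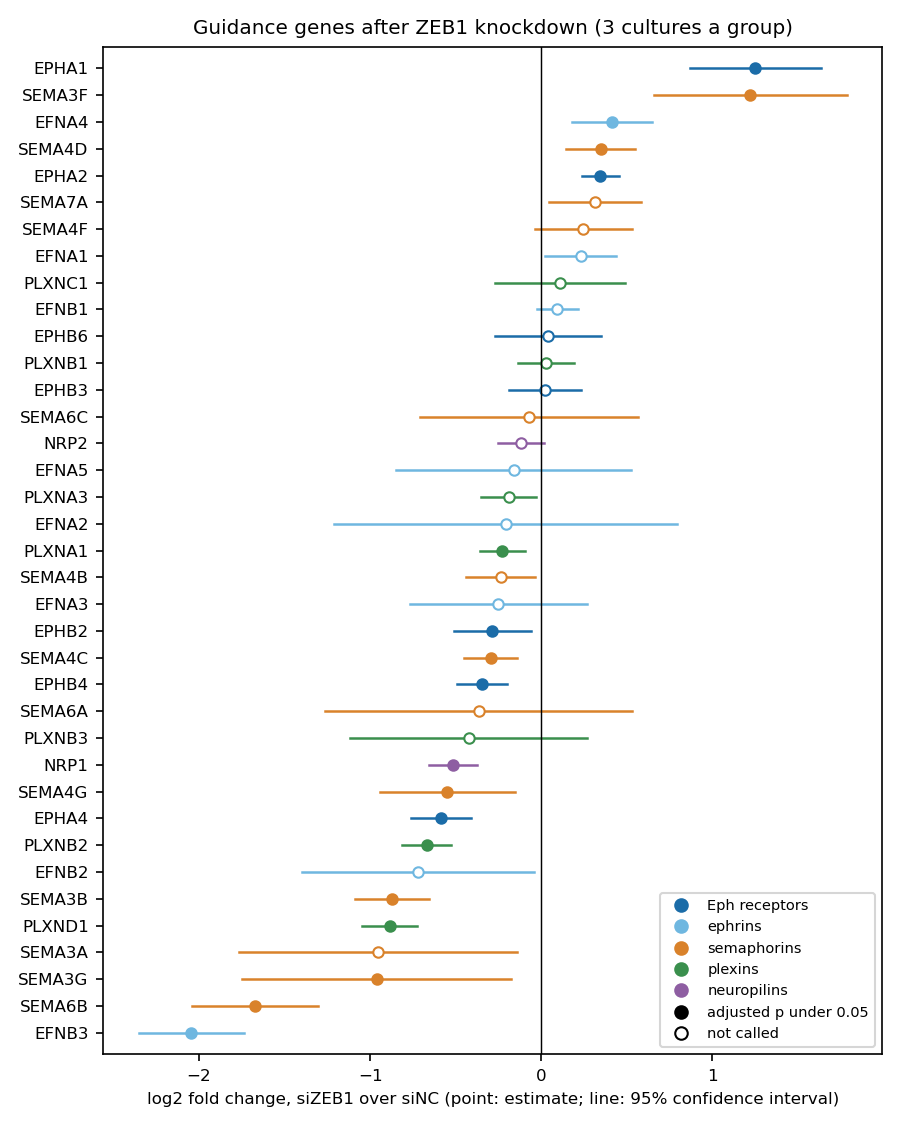
Log2 change of siZEB1 over siNC for each of the 37 members compared, with its 95% interval from the edgeR fit. Members are sorted by log2 change and coloured by class, with filled points for those called and open points for the others. EFNB3 at -2.04 and SEMA6B at -1.67 lie farthest below 0, and EPHA1 at 1.25 and SEMA3F at 1.22 farthest above it.

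To place these genes beside the E-box that ZEB1 is known to bind, the RefSeq promoter windows (GRCh38.p14, from 250 bases before to 50 after each annotated start, 300 bases in all) were searched for CAGGTG and its reverse complement CACCTG, so that both strands were covered. Windows were found for 41 of the 47 members, 60 windows in all. EFNB3, EPHA10, NRP1, SEMA3A, SEMA6A and SEMA6B had no entry. Of the 60 windows, 12 held the motif (20%), against 20.6% of all 35116 windows of the table. The stretches of the 5 called members with a match are shown because they are the moved genes whose near promoter holds these letters. Capitals mark the match, each stretch runs 5′ to 3′ on the strand of its gene, and a match is a description of letters only.
EPHA1: aaggaggtgaacCAGGTGaggccgggactc
SEMA3F: ccggcccacggaCAGGTGgagcgggggcgg
EPHB2: gcgcccgcggctCAGGTGggccgtgcccag
SEMA3B: ttctgggaccgcCACCTGgggcacccttct
SEMA3G: aaggagaagcggCAGGTGgacggcaaggcc
The EPHA1 stretch is chr7:143408919-143408948 on the minus strand, with the match 80 bases before the start. That of SEMA3F is chr3:50154909-50154938 on the plus strand, 137 bases before. That of EPHB2 is chr1:22710764-22710793 on the plus strand, 62 bases before. That of SEMA3B is chr3:50267404-50267433 on the plus strand, 236 bases before, and that of SEMA3G is chr3:52445192-52445221 on the minus strand, 106 bases before. Of these 5 genes, EPHA1 and SEMA3F were higher with siZEB1 and EPHB2, SEMA3B and SEMA3G were lower, so that the letters occurred beside changes in both directions. Matches were also found for EFNB2, PLXNB1, PLXNB3 and SEMA4F, none of them called, and for SEMA4A, which had too few reads to compare.

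Of the Eph receptors, 7 of the 11 listed were compared. EPHA1 and EPHA2 rose, EPHA4, EPHB4 and EPHB2 fell, and EPHB3 and EPHB6 did not pass the test. EPHA1 (ENSG00000146904, chr7:143390289-143408892 on GRCh38), whose letters are shown above, had 44, 37 and 49 reads with siNC and 94, 93 and 96 reads with siZEB1. Its groups were well apart, with the siZEB1 cultures close to each other. The level went from 2.09 ± 0.445 to 4.94 ± 0.0945 CPM (SD, n = 3), a log2 change of 1.25 (SE 0.18, adjusted p = 3.02e-05), which is 2.38-fold. EPHA2, the receptor that binds A-type ephrins such as EFNA1 and is widely expressed in carcinoma cells, stood at 379.7, 395 and 388 CPM with siNC and 503, 489 and 484 CPM with siZEB1. Each siZEB1 culture was above each siNC culture. The log2 change of 0.34 (SE 0.05, adjusted p = 4.28e-05) is small, 1.27-fold, but it moved the most abundant member of the family.

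EPHA4, an Eph receptor that binds ephrins of both types, moved the other way from EPHA1 and EPHA2. Its level was 97.9, 107 and 84.4 CPM with siNC and 62.1, 61.6 and 69.1 CPM with siZEB1, so the lowest control culture lay above the highest knockdown culture. The log2 change was -0.59 (SE 0.08, adjusted p = 2.51e-05), at the edge of 1.5-fold. EPHB4, the receptor for EFNB2, stood at 85.9, 88.6 and 93.6 CPM with siNC and 68.4, 74.9 and 67.6 CPM with siZEB1, a log2 change of -0.35 (SE 0.07, adjusted p = 0.000614). Its groups did not overlap. EPHB2, a receptor known from the base of the intestinal crypt, had 226, 276 and 227 reads with siNC and 171, 187 and 185 reads with siZEB1. The groups did not overlap either, and the log2 change was -0.29 (SE 0.11, adjusted p = 0.0403). That call was lost under 8 of 14 alternatives, among them leaving out siNC culture 2 or 3 or any siZEB1 culture, with an adjusted p of up to 0.158.

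EPHB3, also a crypt receptor, stood at 13.0 ± 1.14 CPM with siNC and 13.1 ± 0.332 CPM with siZEB1 (SD, n = 3), a log2 change of 0.02 (adjusted p = 0.889). EPHB6, whose kinase domain lacks catalytic activity, had a log2 change of 0.04 (adjusted p = 0.857). Of the B-type receptors compared, 2 were lower and 2 were not called. EPHA10 had 13, 7 and 5 reads with siNC and 3, 4 and 11 with siZEB1, just outside the read minimum. EPHA5 and EPHB1 had 0 reads in every siNC culture, EPHA5 had 1 read in 1 siZEB1 culture, and EPHB1 had 1, 3 and 3 reads with siZEB1. EPHA8 likewise had too few reads to compare.

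All 8 ephrins were compared. EFNB3 fell and EFNA4 rose, and the other 6 did not pass the test. EFNB3 (ENSG00000108947, chr17:7705202-7711378), a transmembrane ephrin, had 183, 229 and 197 reads with siNC and 44, 46 and 44 reads with siZEB1. The control cultures lay far above the knockdown cultures, which were almost equal. The level went from 9.68 ± 0.937 to 2.34 ± 0.0476 CPM (SD, n = 3), a log2 change of -2.04 (SE 0.15, adjusted p = 8.82e-09), which is 4.13-fold lower. The other B-type ephrins did not pass the test. EFNB1 stood at 155.7, 161 and 163 CPM with siNC and 170.4, 175 and 167 CPM with siZEB1, and although these values did not overlap, the log2 change was 0.09 (95% interval -0.03 to 0.22, adjusted p = 0.207). EFNB2, the ligand of EPHB4, had only 30, 36 and 18 reads with siNC and 16, 19 and 11 with siZEB1. Its log2 change was -0.72 (SE 0.32, adjusted p = 0.0859), with 1 siNC culture inside the siZEB1 range, and it passed at 0.0347 without siNC culture 3. Exons of an antisense gene overlap 26.2% of the exonic bases of EFNB2, so its count is uncertain where strand was not used.

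EFNA4, EFNA3 and EFNA1 lie in this order on the plus strand of chromosome 1, 9.32 kb and 39.9 kb apart. EFNA4 (chr1:155063731-155069553), a lipid-anchored ephrin, had 162, 178 and 146 reads with siNC and 208, 197 and 184 with siZEB1. Its groups did not overlap, and the log2 change was 0.42 (SE 0.11, adjusted p = 0.00617). EFNA1 (chr1:155127460-155134857), a main ligand of EPHA2, stood at 11.4, 12.8 and 11.7 CPM with siNC and 14.6, 13.7 and 13.8 CPM with siZEB1. These groups did not overlap, but the log2 change of 0.23 (95% interval 0.02 to 0.43) had an adjusted p of 0.0708. EFNA3, between them, had a log2 change of -0.25 (adjusted p = 0.449) on 31 to 60 reads. A read-through gene on the same strand, AL691442.1, covers 44.7% of the exonic bases of EFNA3 and 15.0% of those of EFNA4. The counts of EFNA3 and EFNA4 are uncertain where reads fell in these shared bases. EFNA5, with a log2 change of -0.16 (adjusted p = 0.727), and EFNA2, with -0.21 (adjusted p = 0.763) on 5 to 17 reads, rest on few reads, and EFNA2 was just inside the read minimum.

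**Figure D2:**
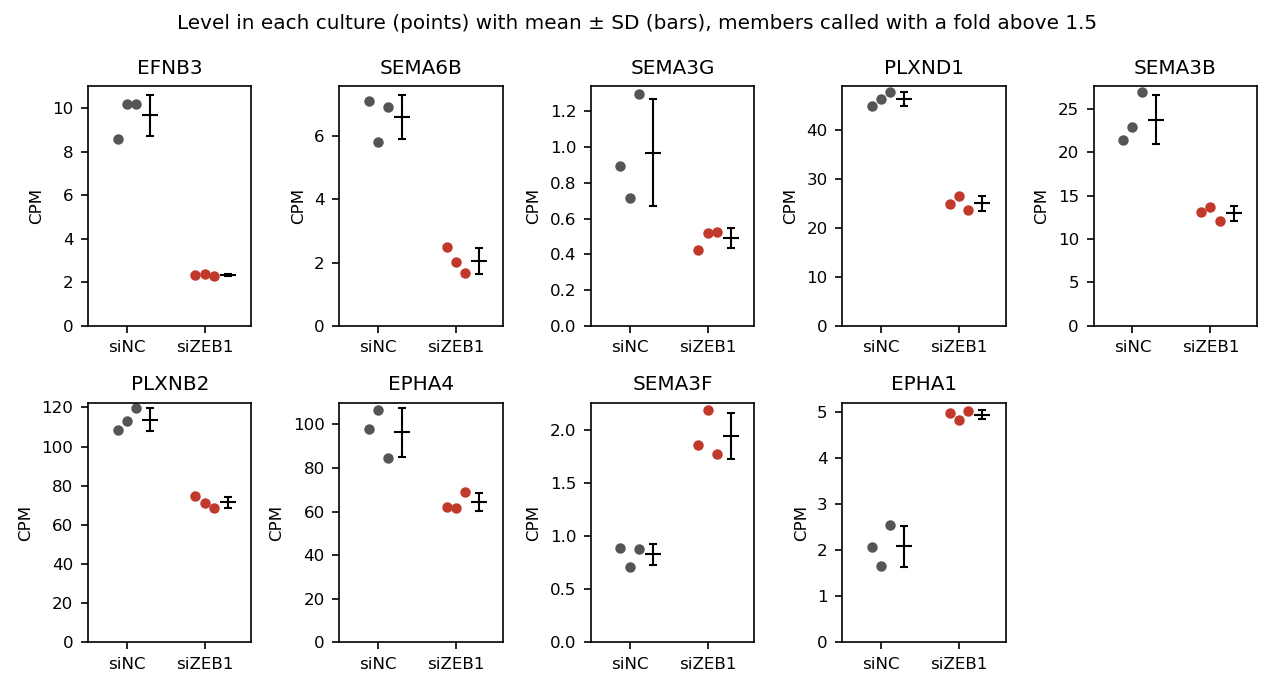
Level in CPM of each member called with a fold above 1.5, in each culture (points) with the mean ± SD (bars), siNC beside siZEB1, each panel with its own axis from 0. In each of the 9 panels the points of the groups are apart, with EPHA1 and SEMA3F higher and the other 7 lower in the siZEB1 cultures.

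Of the 17 semaphorins listed, 13 were compared. SEMA6B, SEMA3B, SEMA3G, SEMA4G and SEMA4C fell, SEMA3F and SEMA4D rose, and 6 did not pass. The largest fall was that of SEMA6B (chr19:4542593-4559808), a transmembrane semaphorin that binds A-type plexins, with 151, 130 and 133 reads with siNC and 47, 39 and 32 reads with siZEB1. Every knockdown culture was far below every control culture. The level went from 6.60 ± 0.695 to 2.06 ± 0.41 CPM (SD, n = 3), a log2 change of -1.67 (SE 0.18, adjusted p = 8.38e-07). SEMA6A and SEMA6C, of the same class, had log2 changes of -0.37 (adjusted p = 0.525) and -0.07 (adjusted p = 0.872), SEMA6A on 7 to 23 reads and just inside the read minimum.

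The secreted class 3 semaphorins moved in opposite directions, including a pair that are neighbours. SEMA3F (chr3:50155045-50189075) and SEMA3B (chr3:50267558-50277546) lie on the plus strand of chromosome 3 with 78.5 kb between them, and both are known as candidate tumour suppressors of that region. SEMA3F, whose main receptor is NRP2, had 19, 16 and 17 reads with siNC and 35, 42 and 34 with siZEB1. Its log2 change was 1.22 (SE 0.27, adjusted p = 0.00137). SEMA3B had 456, 512 and 518 reads with siNC and 248, 263 and 230 with siZEB1, a log2 change of -0.87 (SE 0.10, adjusted p = 2.98e-06). Neither gene's groups overlapped, and SEMA3B was the more abundant by far, at 4.11 against 0.172 CPM per kb of exon with siNC. SEMA3G, also on chromosome 3, had 19, 16 and 25 reads with siNC and 8, 10 and 10 with siZEB1, a log2 change of -0.96 (SE 0.37, adjusted p = 0.0489). The siNC cultures of SEMA3G, where it was high, met the read minimum by themselves, and the siZEB1 cultures did not. The call of SEMA3G was lost under 9 of 13 alternatives, including without siNC culture 1 or 3 or without any siZEB1 culture, with an adjusted p of up to 0.206. SEMA3A, the classical repellent ligand of NRP1, had 27, 29 and 17 reads with siNC and 6, 9 and 19 with siZEB1. These groups overlapped, and the log2 change of -0.95 missed the threshold (adjusted p = 0.0587), passing at 0.00776 without siZEB1 culture 3 and at 0.0289 without siNC culture 3. Without siZEB1 culture 3, only siNC cultures of SEMA3A, where it was high, reached 10 reads. SEMA3C had 3, 4 and 4 reads with siNC and 4, 1 and 3 with siZEB1, too few to compare, as had SEMA3D.

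Class 4 semaphorins are transmembrane ligands of B- and D-type plexins. SEMA4D, the ligand of PLXNB1, stood at 19.1, 22.8 and 21.9 CPM with siNC and 26.8, 24.3 and 29.99 CPM with siZEB1. The siZEB1 cultures were all higher, with a log2 change of 0.35 (SE 0.10, adjusted p = 0.00811). SEMA4C, a ligand of PLXNB2, stood at 61.5, 68.6 and 69.1 CPM with siNC and 57.0, 50.9 and 54.6 CPM with siZEB1, a log2 change of -0.29 (SE 0.07, adjusted p = 0.00384). The ligand SEMA4D and the ligand SEMA4C thus moved in opposite directions. SEMA4G had a log2 change of -0.55 (SE 0.19, adjusted p = 0.026), lost under 4 of 14 alternatives, including without siNC culture 2 or without siZEB1 culture 1 or 3 (adjusted p up to 0.138), and exons on the opposite strand, MRPL43 among them, overlap 27.4% of its exonic bases. SEMA4B had -0.24 (adjusted p = 0.0595) with groups that did not overlap, passing at 0.0445 without siNC culture 3 and at 0.0280 without siZEB1 culture 2. SEMA4F had 0.25 (adjusted p = 0.158). SEMA7A, the lipid-anchored semaphorin that binds PLXNC1 and integrins, had 203, 194 and 199 reads with siNC and 181, 261 and 233 with siZEB1, and a log2 change of 0.31 (adjusted p = 0.0617), passing at 0.0241 without siNC culture 3 and at 0.0147 without siZEB1 culture 1. SEMA4A and SEMA5A had too few reads to compare, SEMA5A with 6, 7 and 4 reads against 13, 1 and 8.

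Among the plexins, 7 of the 9 listed were compared. PLXND1, PLXNB2 and PLXNA1 fell, none rose, and 4 did not pass. PLXND1 (chr3:129555175-129606818), the receptor of SEMA3E known from vessel patterning, stood at 44.8, 46.4 and 47.7 CPM with siNC and 25.0, 26.6 and 23.6 CPM with siZEB1. The cultures of each group were close together and the groups far apart. The log2 change was -0.89 (SE 0.08, adjusted p = 8.88e-08), 1.85-fold lower. PLXNB2 (chr22:50274979-50307627), the most abundant plexin here and a receptor of class 4 semaphorins, stood at 108.3, 113 and 120.0 CPM with siNC and 74.6, 71.2 and 68.7 CPM with siZEB1. Its log2 change was -0.67 (SE 0.07, adjusted p = 4.71e-07). PLXNA1, a partner of the neuropilins, stood at 105, 113 and 112 CPM with siNC and 95.9, 94.3 and 91.8 CPM with siZEB1, a smaller fall of 0.23 on the log2 scale (SE 0.06, adjusted p = 0.008). That call was lost under 1 of 14 alternatives, the replicate number as a block (adjusted p = 0.0576).

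PLXNB1, the receptor of SEMA4D, stood at 45.0, 52.8 and 48.7 CPM with siNC and 49.7, 47.2 and 52.6 CPM with siZEB1. The groups overlapped fully and the log2 change was 0.03 (95% interval -0.13 to 0.19, adjusted p = 0.788). PLXNA3 had -0.19 (adjusted p = 0.0568), passing at 0.0238 without siNC culture 1 and at 0.0284 without siZEB1 culture 3. PLXNC1 had 0.11 (adjusted p = 0.663). PLXNB3 had -0.42 (adjusted p = 0.328) on 12 to 21 reads, and SRPK3 exons on its strand overlap 20.4% of its exonic bases. PLXNA2, with 9, 5 and 6 reads against 6, 8 and 7, and PLXNA4 had too few reads to compare.

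The neuropilins, co-receptors shared by class 3 semaphorins and VEGF, were both among the 10 members highest per length in siNC. NRP1 stood at 134.9, 138 and 129 CPM with siNC and 95.6, 86.8 and 97.9 CPM with siZEB1, with a wide gap between the groups. The log2 change was -0.52 (SE 0.07, adjusted p = 7.82e-06). NRP2 stood at 109, 107 and 104 CPM with siNC and 101, 93.6 and 99.5 CPM with siZEB1. Its groups were just apart, and the log2 change of -0.12 (95% interval -0.25 to 0.02, adjusted p = 0.154) did not pass. The intervals of NRP1 and NRP2 are each gene's own, and the difference between their changes was not tested.

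Levels of different genes were compared per length, as CPM per kb of exon in GENCODE 29. EPHA2 was highest in both groups, at 93.2 ± 1.86 with siNC and 118 ± 2.28 with siZEB1 (SD, n = 3), and EFNB1 came next, at 48.3 ± 1.2 and 51.6 ± 1.26. Below them in siNC followed PLXNB2 at 15.7 ± 0.807, EPHB4 at 13.9 ± 0.612, EPHA4 at 12.8 ± 1.49 and NRP1 at 11.6 ± 0.387, and SEMA4C at 10.8 ± 0.691 and PLXNA1 at 10.1 ± 0.40. In this order, every siNC culture of PLXNB2 lay above every siNC culture of EPHB4, whereas the cultures of each pair of neighbours from EPHB4 down to PLXNA1 overlapped. With siZEB1, EPHB4 at 10.9 ± 0.622 stood above PLXNB2 at 9.85 ± 0.41, with no overlap between their cultures.

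**Figure D3:**
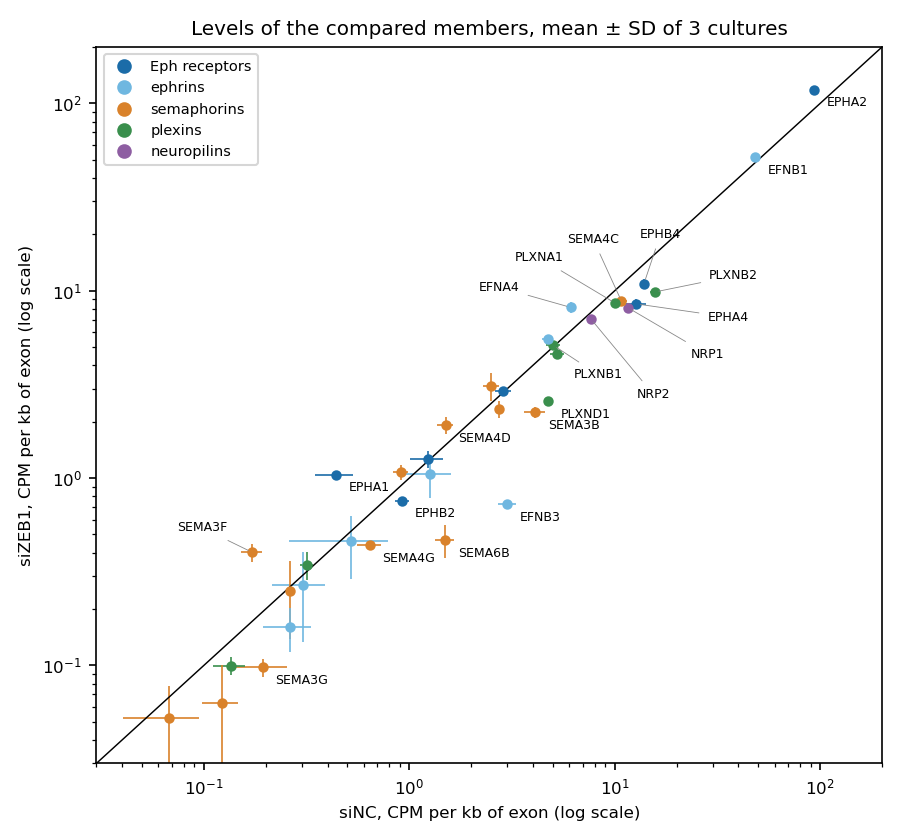
Level of each compared member per kb of exon with siZEB1 (y axis) against siNC (x axis), both on log scales, as mean ± SD of 3 cultures and coloured by class, with the line of equal levels. EPHA2 at 93.2 and 118 and EFNB1 at 48.3 and 51.6 lie apart at the top, and EFNB3, SEMA6B and PLXND1 lie farthest below the line among members above 1 with siNC.

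Summed over a class, the per-length level of the Eph receptors was 123 to 128 CPM per kb with siNC and 142 to 146 with siZEB1, a ratio of 1.15. EPHA2 made up 74.3 ± 0.17% of this sum with siNC and 82.3 ± 0.673% with siZEB1 (SD, n = 3). The ephrin sum was 64.5 ± 1.92 with siNC and 68.0 ± 1.74 with siZEB1, with EFNB1 at 74.9% and 75.9% of it, and EFNB3 going from 4.65% to 1.07%. Plexins and neuropilins together went from 60.5 ± 1.63 to 46.4 ± 1.13, a ratio of 0.767, and the share of PLXNB2 from 25.9% to 21.2%. Semaphorins went from 25.6 ± 1.10 to 21.3 ± 0.256, a ratio of 0.832. SEMA4C was the largest part of that sum in both groups, at 42.1% and 41.3%, while SEMA3B went from 16.0% to 10.5% and SEMA7A from 9.78% to 14.5%. For each of these sums, all siZEB1 cultures lay on 1 side of all siNC cultures, by a narrow margin for the ephrins. Among all single genes tested, 49.2% were apart in this way. The Eph receptor sum followed EPHA2, whereas EPHA4, EPHB4 and EPHB2 fell. The ephrin sum followed EFNB1, which was not called.

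**Figure D4:**
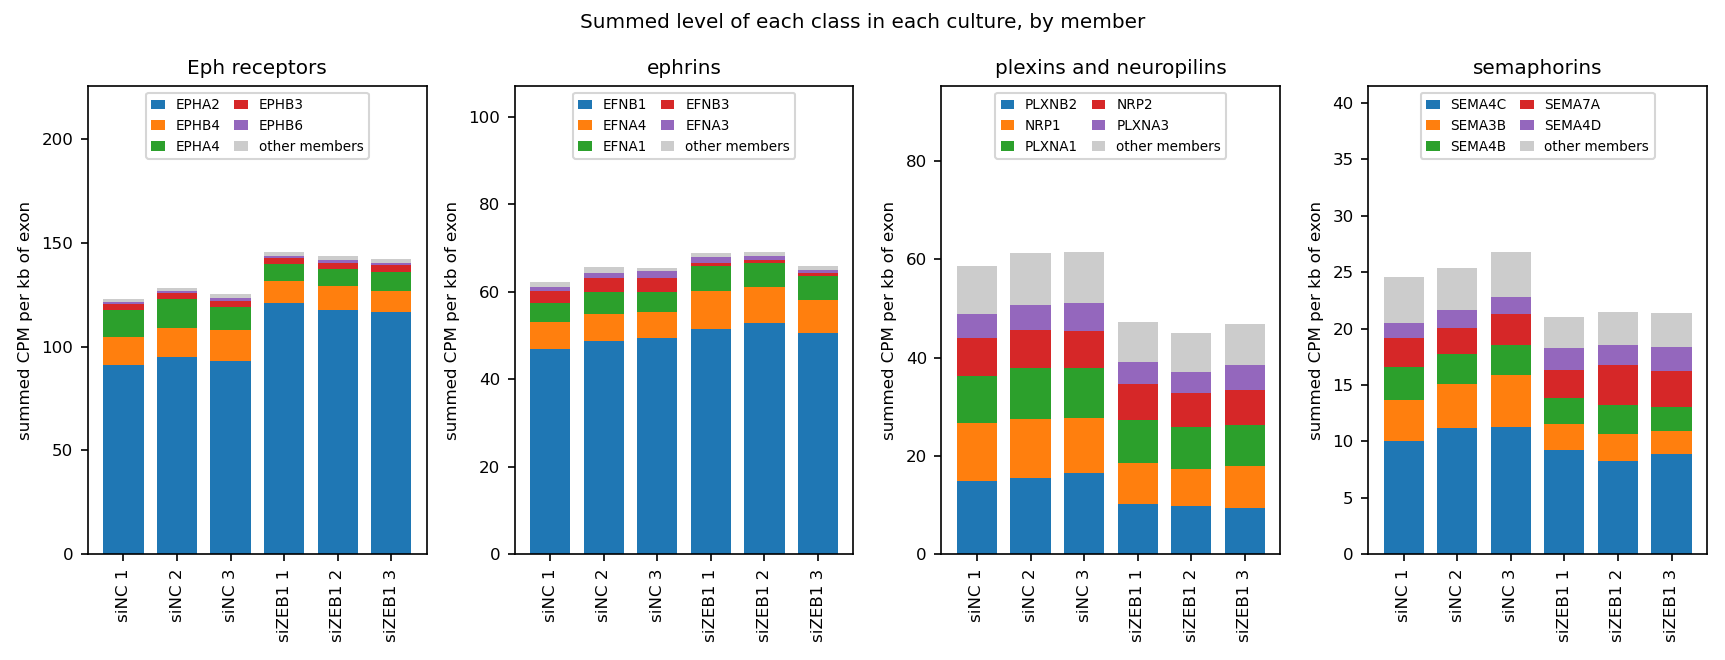
Summed level per kb of exon of each class in each culture, stacked by member, with each panel on its own axis from 0. EPHA2 fills most of the Eph receptor bars and EFNB1 most of the ephrin bars, and the plexin and neuropilin bars and the semaphorin bars are lower in the siZEB1 cultures.

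Of 32 genes of other guidance families, netrins, SLITs and their receptors among them, 14 were compared, of which 2 were higher, 4 lower and 8 not called (42.9% called, against 39.8% of all genes). DRAXIN, a secreted netrin antagonist, had 35, 31 and 42 reads with siNC and 2, 9 and 6 with siZEB1, a log2 change of -2.51 (SE 0.40, adjusted p = 8.10e-05). SLIT3, a secreted ligand of the ROBO receptors, had 90, 105 and 68 reads with siNC and 127, 139 and 166 with siZEB1, a log2 change of 0.86 (SE 0.15, adjusted p = 0.000215). No siZEB1 culture of DRAXIN reached 10 reads, so that it entered the test through the siNC cultures alone, where it was high. The netrin receptors UNC5B and NEO1 and the netrin NTN1 fell by 0.74, 0.30 and 0.34 on the log2 scale (adjusted p = 0.0118, 0.0045 and 0.0138). RTN4, the sixth called gene of this list, rose by 0.24 on that scale (adjusted p = 0.00121).

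Of 58 symbols chosen for proteins known to work beside or below Eph receptors and plexins, 55 were compared. Of these, 13 were higher, 18 lower and 24 not called (56.4% called, against 39.8% of all genes, with 18.8% higher and 21.0% lower). Their median log2 change was -0.01. The 5 with the largest changes were mostly higher. GRB7, an adaptor for receptor tyrosine kinases, had 7, 10 and 8 reads with siNC and 30, 40 and 29 with siZEB1, a log2 change of 2.11 (SE 0.32, adjusted p = 5.93e-05). Only 1 siNC culture of GRB7 reached 10 reads, so that it entered the test through the siZEB1 cultures, where it was high. MST1R, the RON receptor, whose outer part carries a sema domain like that of plexins, had 76, 82 and 83 reads with siNC and 219, 215 and 222 with siZEB1, a log2 change of 1.58 (SE 0.12, adjusted p = 2.98e-08). The GTPases RHOD and RAC1 rose by 0.86 and 0.73 on the log2 scale (adjusted p = 4.43e-05 and 5.23e-08), RAC1 from 299 ± 21.9 to 497 ± 17.5 CPM (SD, n = 3). CRMP1, a cytosolic protein that relays semaphorin signals to the cytoskeleton, fell by 0.86 on the log2 scale (adjusted p = 9.11e-05).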

How the data were processed

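Total RNA of 6 SW480 cultures was sequenced. The authors deposited raw counts of reads per Ensembl gene for each culture, without normalization. The submitters' processing notes name Trimmomatic, HISAT2, SAMtools, featureCounts and hg38; versions, annotation and strand setting are not given in the sources used here. Of 32029 gene identifiers, 31059 matched GENCODE 29, from which coordinates, overlaps and exon lengths were taken, since the deposited counts carry no lengths.

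Genes with at least 10 reads in at least 3 cultures were normalized by TMM and tested with edgeR 4.0.16 (quasi-likelihood, two-sided, R 4.3.3), with Benjamini-Hochberg adjustment over 15187 genes. The biological coefficient of variation was 6.58%, and depth limits members under about 1 CPM. DESeq2 1.42.0, other scalings, filters, thresholds, the replicate number as a block and each culture left out were alternatives. Within a group, cultures varied by 2.18 to 8.58 times counting noise (chi-square over degrees of freedom), so none was taken for a copy of another; this does not show that they are independent.

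Members, lists and tests were chosen with earlier results of these data known. Full values were given for members called with a fold above 1.5 and for EPHA2, EPHB2, EPHB4, EFNA1, EFNB1, EFNB2, SEMA3C, SEMA3F, SEMA4D, PLXNA1, PLXNB1, PLXNB2, NRP1 and NRP2 whatever their value, and of each other list for up to 5 called genes with the largest change. Other members are named with fewer values. Intervals cover 95%.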

Additional observations from a re-analysis of the deposited data

How the results depend on the processing

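Alternatives counted for each member were the other test, scalings, filters, the replicate block and each culture left out, up to 14. The threshold rules given below were not among them. Of the 18 called members, all kept their direction under each of these alternatives and 14 also kept the call under each. SEMA3G, EPHB2, SEMA4G and PLXNA1 lost it under at least 1. EFNB2, PLXNA3, SEMA3A, SEMA4B and SEMA7A, not called, passed under at least 1. Thresholds that also required a fold gave lower counts. For the rule with an unadjusted p under 0.05 this was not fixed by construction, since it also took in EFNB2 and SEMA3A, which were not called. With a fold above 1.5 and an unadjusted p under 0.05, 2 members were higher and 9 lower, with 1088 genes higher and 1423 lower over all genes, and 3 other guidance genes and 5 signalling partners called. With p under 0.001, 2 members were higher and 6 lower, with 680 genes higher and 1004 lower over all genes, and 2 other guidance genes and 5 partners called. With a fold above 2 at the adjusted threshold, 2 members were higher and 2 lower, with 377 genes higher and 472 lower over all genes, and 1 other guidance gene and 2 partners called. The members' median log2 fold change was -0.19 where 10 reads were required in every culture, which removes 4 members, and ranged from -0.24 to -0.18 with each culture left out, the cause of which was not tested.

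Leaving out each culture in turn changed the sign of 7 members that were not called, whose log2 fold changes then ranged from -0.49 to 0.24 for EFNA2, -0.64 to 0.11 for EFNA5, -0.0274 to 0.0925 for EPHB3, -0.047 to 0.194 for EPHB6, -0.0261 to 0.0909 for PLXNB1, -0.82 to 0.0043 for SEMA6A and -0.43 to 0.22 for SEMA6C. Over other scalings, the median of all genes moved by less than 0.01 on the log2 scale.

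Cultures share replicate numbers across groups, but same-numbered cultures did not deviate together (correlations of -0.07, -0.12 and -0.31 over 13197 genes), so the numbers were not used as pairs. Cultures with different numbers had correlations of -0.16 to 0.24, and whether the groups share other structure was not tested. With the replicate number as a block, 5 members were called higher and 10 lower, and 2299 genes higher and 2679 lower. PLXNA1 (adjusted p = 0.0576), EPHB2 (0.0818) and SEMA3G (0.0753) lost the call there.

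At 19040636 to 22357633 reads a culture, 10 members had too few reads to compare, and differences of members under about 1 CPM rest on few reads.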

Other observations

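Of the 5 collapsin response mediator proteins among the signalling partners, cytosolic relays of semaphorin signals, 4 were called lower. They were singled out after their values were seen, and 21.0% of all genes tested were called lower. Beside CRMP1, with 147, 188 and 157 reads with siNC and 87, 84 and 75 with siZEB1, DPYSL2 went from 107 ± 1.6 to 76.8 ± 2.48 CPM (SD, n = 3), a log2 change of -0.48 (SE 0.06, adjusted p = 9.14e-06 in edgeR's quasi-likelihood test). DPYSL3 and DPYSL5 had log2 changes of -0.47 (adjusted p = 0.00299) and -0.30 (adjusted p = 0.00682). DPYSL4, the least abundant at 1.14 ± 0.143 CPM with siNC, had 0.29 (adjusted p = 0.422).

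FARP2 and FARP1, exchange factors that bind A-type plexins, were lower as well, with log2 changes of -0.58 (SE 0.09, adjusted p = 6.13e-05) and -0.39 (SE 0.08, adjusted p = 0.000511). The kinases LIMK1 and LIMK2, which phosphorylate cofilin, moved in opposite directions. LIMK1 went from 116 ± 4.88 to 103 ± 2.56 CPM and LIMK2 from 36.9 ± 0.853 to 48.4 ± 1.05 CPM (SD, n = 3), with log2 changes of -0.18 (adjusted p = 0.0305) and 0.39 (adjusted p = 0.000248). These 4 genes were also chosen after their values were seen.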
